A study of Mus musculus with 18 samples.

Results

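The genes described here write, copy and erase DNA methylation. They are the oxidising enzymes Tet1, Tet2 and Tet3, the repair glycosylase Tdg, the maintenance methyltransferase Dnmt1 with its guide Uhrf1, the de novo methyltransferases Dnmt3a and Dnmt3b, and their cofactor Dnmt3l. They were chosen by symbol, and each gene is read by the probe set of its own whose mean over all 18 arrays is highest. Of the 9 listed genes 8 were measured, among 22180 genes in all. Both Tdg probe sets also name Tdg pseudogenes, so Tdg has no value of its own here.

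Expression was measured on mouse microarrays, with all cells of strain Black6-129X1/SvJ. Reprogrammable fibroblasts (Rep-MEFs), which carry an inducible set of the reprogramming factors Oct4, Klf4, Sox2 and Myc (OKSM), were cultured as bulk populations that express OKSM. The treated arm also received AGi, the combination of ascorbic acid and an inhibitor of the kinase GSK3, and the control arm expressed OKSM without AGi. Both arms have 1 array for each of days 2, 4, 6, 8, 10 and 12. A further 6 arrays hold 1 sample each: Rep-MEFs without doxycycline (here MEF), which carry the same inducible factors; wild-type embryonic stem cells (ESC); iPSCs from fibroblasts after 96 hours of OKSM with AGi (Fibroblast-iPSC); iPSCs from granulocyte-macrophage progenitors (GMP) after 48 hours of the same (GMP-iPSC); GMPs; and cells sorted as Thy1-positive on day 3 of OKSM expression, which the labels call refractory. AGi was given only as the combination, so its components cannot be told apart, and each iPSC kind is 1 sample.

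Values are log2 expression, on which a difference of 1 is a doubling, and array medians lay between 6.32 and 6.46. No condition was repeated, so the errors and p-values of the time course measure the spread between days. The labels matched their markers: the mean of 16 pluripotency genes was 10.48 to 10.54 in the 3 pluripotent arrays and 6.22 in MEF, that of 16 fibroblast genes was 10.28 in MEF, and that of 10 myeloid progenitor genes was 11.54 in GMP. The fibroblast mean was 8.36 in Fibroblast-iPSC, against 7.54 in ESC and 6.86 in GMP-iPSC. For the hybridisation controls, RNAs of no mouse cell, 18 of 18 probe sets read higher on the AGi arrays, by 0.06 to 0.26, so member differences of that size lie within a difference between the arrays.

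DNA methylation in mammals sits mostly on the cytosine of CpG pairs. Dnmt3a and Dnmt3b place it on unmethylated DNA, with Dnmt3l, which has no catalytic activity, as their stimulating partner in germ cells and stem cells. Uhrf1 recognises the hemimethylated sites left by replication and brings Dnmt1 to copy the pattern to the new strand. TET enzymes oxidise methylcytosine with iron and 2-oxoglutarate, and ascorbate is known to raise their activity; Tdg removes the further oxidised bases so that repair restores cytosine. Only RNA was measured here, and neither methylation nor enzyme activity.

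The first comparison asked which of these genes separate pluripotent cells from fibroblasts, the start and the goal of the cultures. Tet1 and Dnmt3l, and after them Dnmt3b and Tet2, lay far higher in all 3 pluripotent arrays than in MEF, and Tet3 was the only measured member lower in all 3. Relative to MEF, the mean of the pluripotent arrays was higher by 4.98 for Tet1, 4.39 for Dnmt3l, 3.51 for Dnmt3b, 3.15 for Tet2, 1.67 for Uhrf1 and 1.41 for Dnmt3a. Dnmt1 was higher by 0.98, and Tet3 differed by −1.31. Thus 7 of 8 members were past 1 log2 in either direction, where 23.5% of 14358 genes were. These are single arrays without a test, and all of these differences share the MEF array.

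Among the erasers, Tet1 and Tet2 were even over the pluripotent arrays and Tet3 was not. Tet1 read 11.86 in ESC, 11.83 in Fibroblast-iPSC and 11.85 in GMP-iPSC, against 6.86 in MEF and 7.41 in GMP. Tet2 read 11.55, 11.44 and 11.51 in the same 3 arrays, against 8.35 in MEF and 10.48 in GMP, so the blood progenitors stood 2.13 above the fibroblasts for this gene, well known for its part in blood cell formation. Tet3, the TET enzyme of the oocyte and of many differentiated cells, read 7.53, 8.46 and 8.20 in the pluripotent arrays, below 9.37 in MEF and 10.20 in GMP. Its spread over the 3 pluripotent arrays was 0.48 (SD), compared with 0.02 for Tet1.

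The de novo genes differed among the pluripotent arrays. Dnmt3a read 9.54 in ESC and 9.42 in GMP-iPSC but 8.50 in Fibroblast-iPSC, with 7.74 in MEF. Dnmt3b read 10.89 in ESC, 10.48 in GMP-iPSC and 9.91 in Fibroblast-iPSC, with 6.92 in MEF. Dnmt3l took the opposite order: 9.97 in ESC, 10.59 in GMP-iPSC and 10.76 in Fibroblast-iPSC, with 6.05 in MEF. Both methyltransferases thus read highest in ESC, and their cofactor read lowest there. GMP-iPSC differed from ESC by only −0.13 for Dnmt3a, and both iPSC arrays read close for Dnmt3l. Values so near cannot be ordered by single arrays. Fibroblast-iPSC differed from ESC by −1.04 for Dnmt3a, and this was the only member past 1 log2 between the 2 arrays (3.66% of all genes were). For Dnmt3b the difference was −0.98, for Tet3 0.94 and for Dnmt3l 0.78. GMP-iPSC differed from ESC by at most 0.67 for any member, that of Tet3, and none passed 1 log2 (1.88% of all genes did). The fibroblast mean given above was higher in Fibroblast-iPSC than in ESC, and its part in these differences was not tested.

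The maintenance genes were even over the pluripotent arrays. Dnmt1 read 11.31 to 11.42 in the pluripotent arrays, 11.48 in GMP and 10.38 in MEF. Uhrf1 read 10.83 to 10.97 in the pluripotent arrays, 10.39 in GMP and 9.22 in MEF. MEF held the lowest value of all 18 arrays for both. The mean of 20 S phase and mitosis genes was also lowest in MEF, at 10.11, against 11.11 to 11.22 in the pluripotent arrays and 10.98 in GMP. In GMP the members past 1 log2 from MEF were Tet2 at 2.13, Dnmt3b at 1.23, Uhrf1 at 1.16 and Dnmt1 at 1.10, where 22.2% of all genes were past that size. GMP-iPSC differed from GMP, the cells it was made from, by 4.44 for Tet1, 3.60 for Dnmt3l, 2.33 for Dnmt3b, −2.01 for Tet3, 1.17 for Dnmt3a and 1.03 for Tet2. These 6 members were past 1 log2, where 23% of all genes were, and Uhrf1 (0.59) and Dnmt1 (−0.14) were not.

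**Figure D1:**
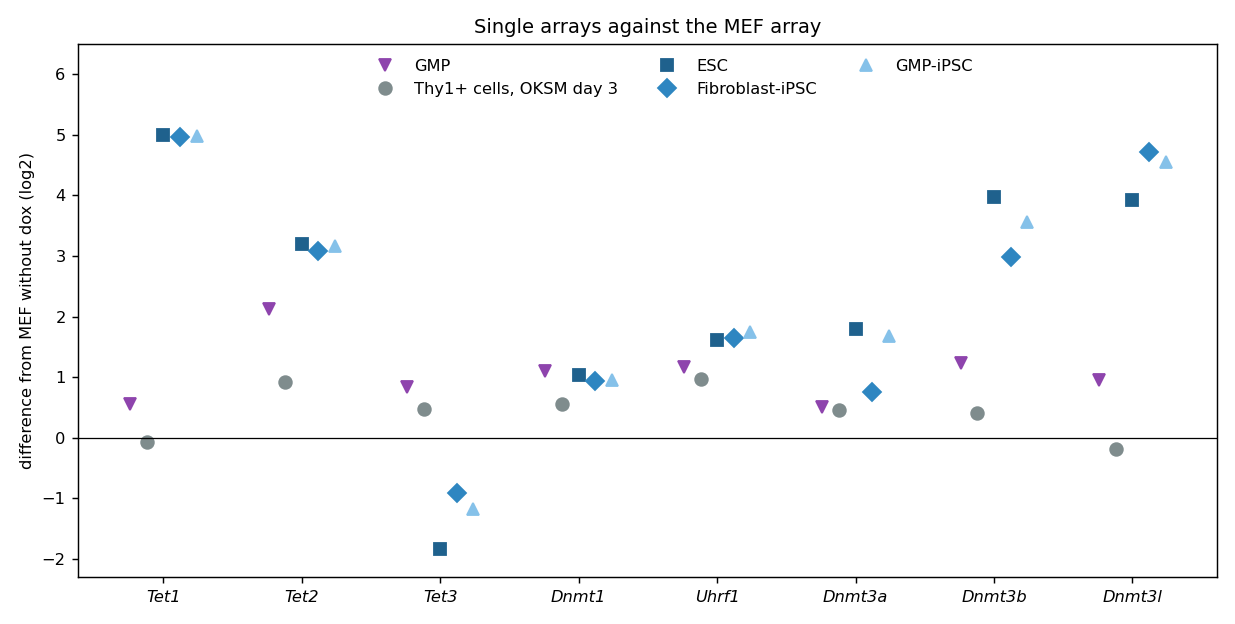
Difference of each single array from MEF without dox (log2, y axis) for 8 genes (x axis), 1 point per array. The 3 pluripotent arrays nearly coincide for Tet1, Tet2, Dnmt1 and Uhrf1 and spread apart for Tet3, Dnmt3a, Dnmt3b and Dnmt3l, and only Tet3 has them all below 0.

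The second comparison asked how these genes differed with AGi on matched days. With AGi, Tet1, Tet2 and Dnmt3b were higher and Tet3 and Dnmt3a lower over the 6 days. On days 2 to 6 none of the 7 members other than Dnmt3l passed the test, where 14.4% of the genes tested did. On days 8 to 12 all 7 passed, where 41.3% of the genes tested did. In a fit with no filter on low values, Dnmt3l passed on days 8 to 12 and not on days 2 to 6. The TET family divided, with Tet1 and Tet2 higher and Tet3 lower, and so did the de novo pair, with Dnmt3b higher and Dnmt3a lower. In bulk cultures, fewer cells of a type and less RNA per cell cannot be told apart. Over the 6 days limma called 3 higher and 2 lower of the 7 members other than Dnmt3l. Of the 13865 genes tested, 38.9% were called (19.6% higher and 19.3% lower). The difference had 1 sign on 6 of 6 days for 4 members, Tet1, Tet2, Tet3 and Dnmt3a, where 36.5% of genes show this.

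Tet1, the main TET enzyme of stem cells, read 7.07, 7.07, 7.83, 7.98, 8.45 and 9.02 with OKSM alone on days 2 to 12. With AGi it read 7.25, 7.22, 8.50, 9.14, 10.39 and 10.94. Both arms started near the MEF level of 6.86 and climbed from day 6. The AGi culture of day 8 (9.14) read close to the OKSM culture of day 12 (9.02), a gap within the range of the hybridisation controls. AGi was higher on 6 of 6 days, and the limma estimate over them was 1.005 ± 0.268 (log2 ± SE, adjusted p = 0.0204). The differences by day were 0.17, 0.15, 0.68, 1.17, 1.95 and 1.92. This call did not hold when day 8 or day 10 was left out (adjusted p = 0.0624 and 0.0585), nor with no day term in the model (adjusted p = 0.259).

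Tet2 was higher with AGi on each day as well, by a more even margin, although the ranges of the arms overlapped. It read 9.52, 9.39, 9.79, 9.95, 10.05 and 10.37 with OKSM alone and 9.77, 9.78, 10.09, 10.19, 10.53 and 11.01 with AGi. The difference ranged from 0.24 on day 8 to 0.65 on day 12, and its estimate was 0.39 ± 0.07 (adjusted p = 0.00522). On day 2 Tet2 stood above MEF, at 8.35, by 1.16 with OKSM alone and 1.42 with AGi, and Tet1 by 0.21 and 0.38. Its call was lost with day left out of the model (adjusted p = 0.216).

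Tet3 moved the other way. With OKSM alone it stayed between 9.76 and 10.12 on all days, above MEF at 9.37. With AGi it read 9.55, 9.83 and 9.56 on days 2, 4 and 6 and 9.01, 9.07 and 8.68 on days 8, 10 and 12. The AGi cultures thus lay below the MEF level from day 8, while no OKSM culture did. The difference was negative on 6 of 6 days, from −0.21 on day 2 to −1.44 on day 12, with an estimate of −0.69 ± 0.16 (adjusted p = 0.0127). The call was kept under each left-out day.

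The promoter windows of Tet1 and Tet3 are shown because these paralogs moved in opposite directions under AGi. Each line gives the 250 bases before the first annotated start, 5′ to 3′ on the gene's strand, with CpG pairs, the substrate of the enzymes described here, in capitals. They come from RefSeq on GRCm38.p6, at chr10:62887325-62887574 (minus strand) for Tet1 and chr6:83441679-83441928 (minus strand) for Tet3. All 8 measured members matched a RefSeq promoter by symbol.
Tet1: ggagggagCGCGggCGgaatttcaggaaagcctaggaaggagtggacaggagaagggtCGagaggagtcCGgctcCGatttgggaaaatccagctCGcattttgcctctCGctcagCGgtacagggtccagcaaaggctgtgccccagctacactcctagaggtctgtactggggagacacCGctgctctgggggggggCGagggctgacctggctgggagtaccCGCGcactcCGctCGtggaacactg
Tet3: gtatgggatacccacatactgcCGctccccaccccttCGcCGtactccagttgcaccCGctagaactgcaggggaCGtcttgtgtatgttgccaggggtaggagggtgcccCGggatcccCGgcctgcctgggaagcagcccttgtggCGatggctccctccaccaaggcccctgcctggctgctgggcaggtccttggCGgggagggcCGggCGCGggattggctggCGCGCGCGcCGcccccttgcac
The Tet1 window holds 15 CpG pairs and the Tet3 window 17. At least as many occur in 27.3% and 23.5% of 32851 promoter windows of that length, whose median is 6, so both are CpG-rich and differ little in this respect. The Tet2 window holds 51, which 0.067% of windows reach.

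Dnmt1 and Uhrf1, which copy methylation at replication, crossed over between the arms. Dnmt1 read 11.18, 10.91, 10.87, 10.60, 10.64 and 10.47 with OKSM alone and 10.92, 11.18, 11.25, 11.08, 11.27 and 10.88 with AGi. Uhrf1 read 10.45, 10.02, 9.79, 9.57, 9.62 and 9.54 with OKSM alone and 10.11, 10.08, 10.30, 10.16, 10.48 and 9.98 with AGi. On day 2 both read lower with AGi, with differences of −0.26 and −0.34, and on days 4 to 12 both read higher. Over the 6 days neither passed the test: the estimate was 0.32 ± 0.11 for Dnmt1 (adjusted p = 0.0535) and 0.35 ± 0.15 for Uhrf1 (adjusted p = 0.0921). Without day 2 both passed (adjusted p = 0.00429 and 0.0138). Dnmt1 also passed with day entered as a number (adjusted p = 0.0297) and with a mean-dependent variance (adjusted p = 0.0421).

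The cell cycle moved with both. The mean of 20 S phase and mitosis genes differed between the arms by −0.23, 0.06, 0.33, 0.46, 0.60 and 0.35 on days 2 to 12. Dnmt1 differed by −0.26, 0.27, 0.38, 0.48, 0.63 and 0.40, and Uhrf1 by −0.34, 0.06, 0.51, 0.59, 0.86 and 0.44. All 3 were negative on day 2, highest on day 10 and smaller on day 12. Of the 20 cell cycle genes, 4 were higher and 1 lower with AGi over the 6 days, and 15 were higher and 1 lower on days 8 to 12. The first count lies near the 19.6% of all genes called higher, and the second stands beside 20.7%. The part of the cell cycle in the differences of Dnmt1 and Uhrf1 was not tested.

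Of the searched E2F motifs, known from genes of S phase, 1 occurs before the first start of Uhrf1 and none in the windows of other measured members. Dnmt1 thus has none before any of its 3 annotated starts. A part of the motif in the Uhrf1 values was not tested. Its window, at chr17:56303087-56303336 (plus strand, RefSeq, GRCm38.p6), is shown with CpG pairs in capitals.
Uhrf1: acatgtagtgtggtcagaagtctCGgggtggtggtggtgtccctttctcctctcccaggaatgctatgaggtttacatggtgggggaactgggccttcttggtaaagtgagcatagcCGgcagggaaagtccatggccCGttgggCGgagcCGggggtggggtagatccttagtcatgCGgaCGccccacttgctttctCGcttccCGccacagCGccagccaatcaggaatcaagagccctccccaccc
The window holds 10 CpG pairs, a number that 37.8% of windows reach, and a match to TTCCCGCC that starts at base 203. Both strands were searched, and 1.86% of windows hold this motif. The related motif TTTCCCGC, which can overlap it and occurs in 0.895% of windows, and TTTGGCGC, which occurs in 0.417%, were in no member window. Uhrf1 has a second annotated start, whose window holds 30 CpG pairs, a number that 5.94% of windows reach, and none of these motifs. The TCF/LEF motif CTTTGAT (3.21% of windows) and the octamer ATGCAAAT (1.60%) were also in none.

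**Figure D2:**
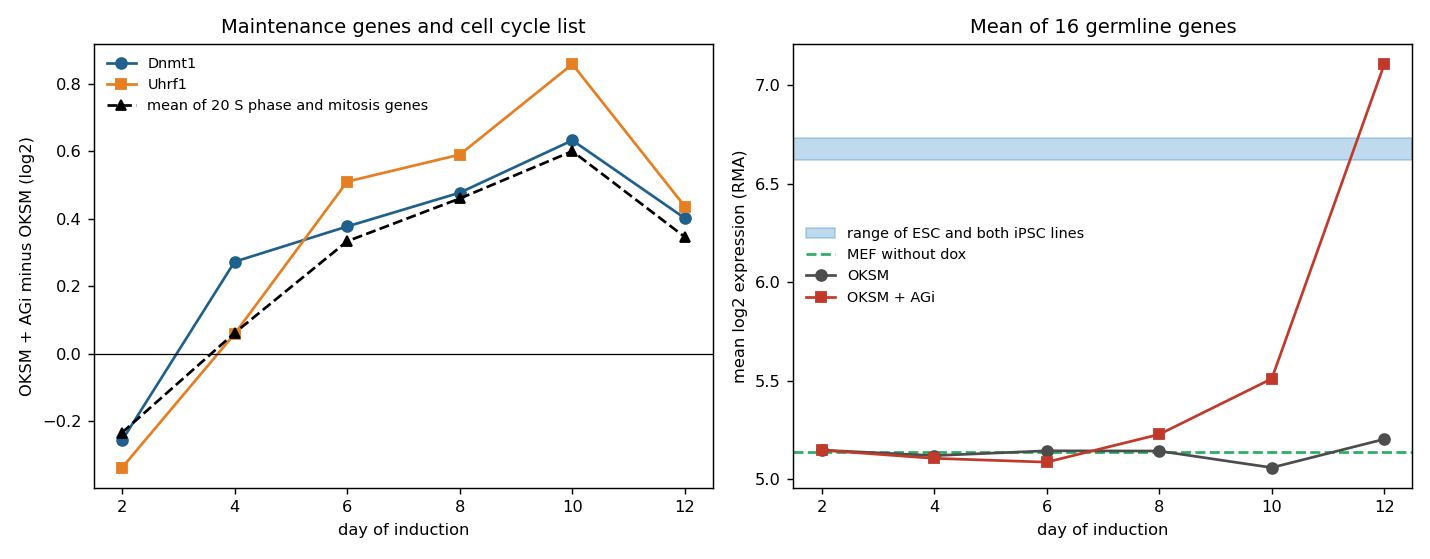
Left, difference between OKSM + AGi and OKSM (log2, y axis) by day of induction (x axis) for Dnmt1, Uhrf1 and the mean of 20 S phase and mitosis genes; all 3 start below 0 on day 2 and are highest on day 10. Right, mean log2 expression of 16 germline genes by day in each arm (1 array per point), with MEF as a dashed line and the range of the pluripotent arrays as a band; the AGi culture reaches 7.11 on day 12.

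The de novo methyltransferases moved apart. Dnmt3a was lower with AGi on 6 of 6 days, with a difference of −0.18 on day 2 and of −0.29 to −0.47 on later days. With OKSM alone it lay between 8.18 and 8.37 and with AGi between 7.72 and 8.06, so the arms did not overlap. Of the 8 measured members only Dnmt3a showed this separation over all 6 days, a count near the 11.4% of the genes tested that show it. The estimate was −0.37 ± 0.06 (adjusted p = 0.00365), and the call was kept under each left-out day and with day left out of the model. With AGi Dnmt3a read 7.76, 7.72 and 7.83 on days 4, 8 and 10, near its MEF level of 7.74. On days 2, 6 and 12 it read 8.05, 8.06 and 7.95, and the pluripotent arrays read 8.50 to 9.54.

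Dnmt3b, the de novo enzyme most typical of early embryonic cells, read 7.62, 7.41, 7.47, 7.61, 7.73 and 7.84 with OKSM alone. With AGi it read 7.52, 7.36, 8.05, 8.57, 8.80 and 8.34. It was thus level with the control on days 2 and 4, and above it by 0.58 on day 6, 1.08 on day 10 and 0.50 on day 12. The estimate was 0.49 ± 0.17 (adjusted p = 0.0489), with AGi higher on 4 of 6 days. That call rested on each of the later days: leaving out days 6, 8, 10 and 12 in turn gave adjusted p-values of 0.111, 0.141, 0.131 and 0.0872. It was also lost with no filter (adjusted p = 0.0672), after a repeated quantile normalization (adjusted p = 0.0549) and with arrays centred on their medians (adjusted p = 0.0511).

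Dnmt3l stayed near the MEF level of 6.05 until day 10 with OKSM alone and until day 6 with AGi. It read 5.90, 5.81, 5.96, 5.85, 5.80 and 7.11 with OKSM alone and 5.85, 5.57, 5.94, 6.80, 7.86 and 9.06 with AGi. The first rise above the MEF level therefore came on day 12 in the control arm and on day 8 with AGi. Over the 6 days the estimate was 0.77 ± 0.34, with AGi higher on 3 of 6 days. Dnmt3l reached the array median on 4 of the 12 time-course arrays, those of AGi on days 8, 10 and 12 and of OKSM on day 12, and entered the filtered fit only through them, where it is high. Its tests are therefore given below from a fit of all 22180 genes with no filter, apart from the counts, which cover the other 7 members, at the median on 12 of 12 arrays. In that fit the estimate over 6 days did not pass either (adjusted p = 0.146).

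The Dnmt3l window is shown beside that of Tet1, given above, because these genes rose together. It lies at chr10:78042037-78042286 (plus strand, RefSeq, GRCm38.p6), before the first of 3 annotated starts, with CpG pairs in capitals.
Dnmt3l: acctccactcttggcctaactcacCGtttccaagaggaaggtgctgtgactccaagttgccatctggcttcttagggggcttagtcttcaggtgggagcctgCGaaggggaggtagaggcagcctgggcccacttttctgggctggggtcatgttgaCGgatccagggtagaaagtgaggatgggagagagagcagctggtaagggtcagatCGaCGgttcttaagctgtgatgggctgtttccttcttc
It holds 5 CpG pairs, the fewest before the first start of any measured member except Dnmt1, which has 2 there and 26 before another start. At least 5 occur in 55.6% of windows. The first windows of Dnmt3a and Dnmt3b hold 38 and 21, which 1.88% and 16.3% of windows reach.

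**Figure D3:**
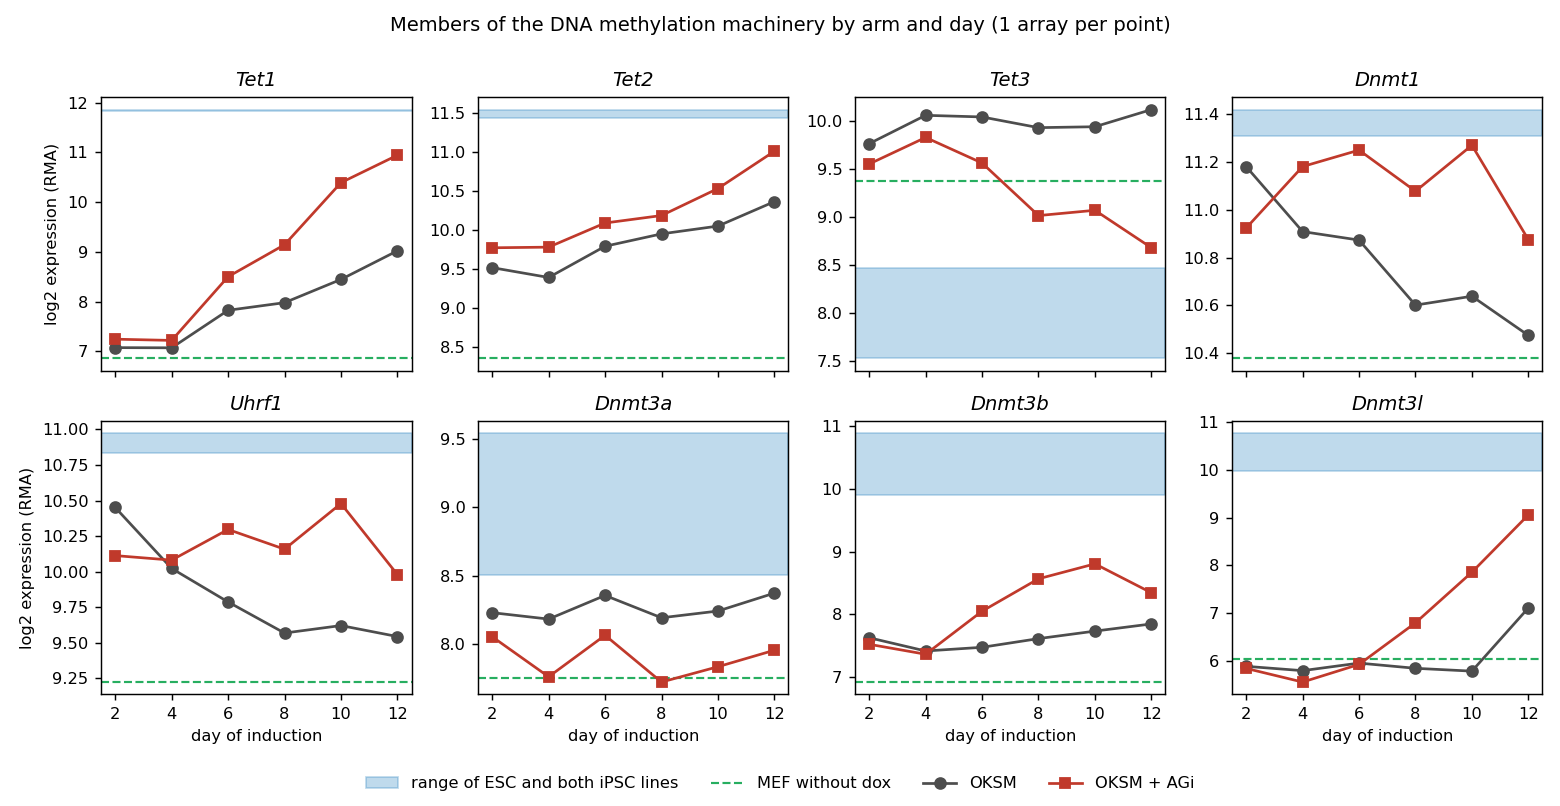
Log2 expression (y axis) of 8 genes by day of induction (x axis) with OKSM alone (circles) and with OKSM + AGi (squares), 1 array per point. The dashed line is MEF without dox and the band spans ESC and both iPSC arrays; Tet1 and Dnmt3l climb towards the band, Tet3 falls towards it with AGi only, and Dnmt3a lies below the control arm on every day with AGi.

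The AGi effect was then split by time. On days 2 to 6 limma called 0 of the 7 members, where 14.4% of genes were called. The nearest were Dnmt3a at −0.30 ± 0.08 (adjusted p = 0.0506) and Tet2 at 0.31 ± 0.10 (adjusted p = 0.0711), and 3 members, these and Tet3, were under an unadjusted p of 0.05. On days 8 to 12 it called 5 of the 7 members higher and 2 lower, where 41.3% of genes were called (20.7% higher and 20.6% lower). Tet1 was higher by 1.68 ± 0.17 (n = 3 days, limma adjusted p = 0.000582). Dnmt3l was higher by 1.65 ± 0.20 in the fit with no filter (adjusted p = 0.00118). Dnmt3b was higher by 0.84 ± 0.16 (adjusted p = 0.0055), Uhrf1 by 0.63 ± 0.16 (adjusted p = 0.0161), Dnmt1 by 0.50 ± 0.13 (adjusted p = 0.0172) and Tet2 by 0.46 ± 0.10 (adjusted p = 0.00845). Tet3 differed by −1.07 ± 0.13 (adjusted p = 0.000909) and Dnmt3a by −0.43 ± 0.08 (adjusted p = 0.00527).

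On days 8 to 12 the arms did not overlap for 6 of the 7 members, all but Tet2, where 50.1% of genes show this. The calls of Dnmt1 and Uhrf1 were lost without day 8 (adjusted p = 0.0599 and 0.0560) or day 10 (adjusted p = 0.0951 and 0.0987). Tested against the largest hybridisation control difference of 0.26 instead of 0, Tet1, Tet3 and Dnmt3b still passed on days 8 to 12. Tet2 (adjusted p = 0.167), Dnmt3a (adjusted p = 0.149), Dnmt1 (adjusted p = 0.192) and Uhrf1 (adjusted p = 0.116) did not. Over all 6 days, limma called 0 of the 7 members in that test, with Tet1 (adjusted p = 0.103) and Tet3 (adjusted p = 0.113) under an unadjusted p of 0.05.

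The difference between the later and the earlier days was itself tested. Of the 7 members it passed for Tet1, at 1.35 ± 0.25 (limma adjusted p = 0.0403), where 2.45% of genes passed. With no filter, Dnmt3l passed at 1.75 ± 0.28 (adjusted p = 0.0385) and Tet1 did not (adjusted p = 0.0508). It did not pass for Tet3 (−0.77 ± 0.18, adjusted p = 0.0761), Dnmt3b (0.70, adjusted p = 0.155), Uhrf1 (0.55, adjusted p = 0.236) or Dnmt1 (0.37, adjusted p = 0.318). The Tet1 call was kept without day 8 and lost without any other day: leaving out days 2, 4, 6, 10 and 12 in turn gave adjusted p-values of 0.123, 0.157, 0.0525, 0.154 and 0.0818. In the filtered fit the Dnmt3l call was lost under the same left-out days, with adjusted p-values of 0.0856, 0.124, 0.0602, 0.129 and 0.0606.

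**Figure D4:**
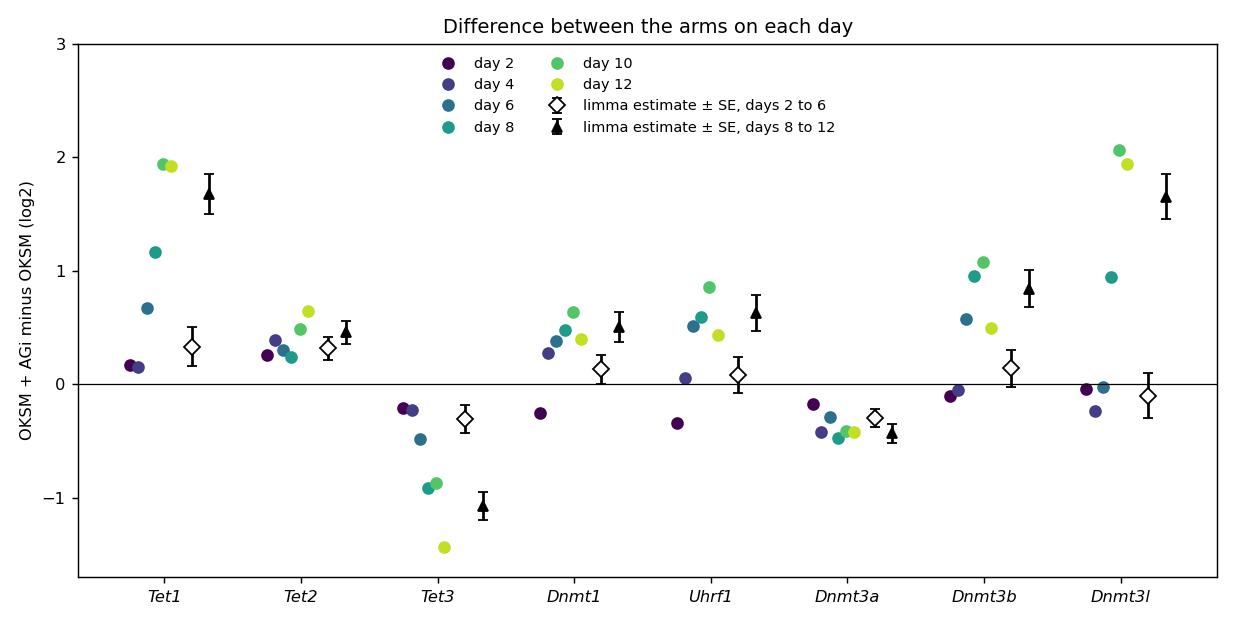
Difference between OKSM + AGi and OKSM (log2, y axis) for 8 genes (x axis), with 1 point per day coloured from day 2 to day 12. Diamonds and triangles are the limma estimates ± SE for days 2 to 6 and days 8 to 12; Tet1 and Dnmt3l are highest on days 10 and 12, Tet3 is lowest on day 12, and Dnmt3a lies below 0 on every day.

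The third comparison asked how the genes moved with time within each arm. With OKSM alone the erasers Tet1 and Tet2 rose and the maintenance pair fell. Tet1 rose by 0.20 ± 0.03 per day (log2, limma SE, adjusted p = 0.00413) and Tet2 by 0.09 ± 0.02 (adjusted p = 0.00989). Uhrf1 fell by 0.09 ± 0.02 per day (adjusted p = 0.0291) and Dnmt1 by 0.07 ± 0.02 (adjusted p = 0.0384). Thus 4 of the 7 members passed, where 8.99% of genes did (5.11% rose and 3.87% fell). Of the 20 S phase and mitosis genes, 8 fell in this arm and none rose; their part in the fall of Uhrf1 and Dnmt1 was not tested. The Dnmt1 call was lost under every left-out day (adjusted p from 0.0614 to 0.105). For Uhrf1 it was lost when days 2, 4, 8 and 10 were left out in turn, with adjusted p-values of 0.188, 0.0889, 0.0618 and 0.0581, and for Tet2 it was narrowly lost without day 4.

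With AGi Dnmt3b passed as rising beside Tet1 and Tet2, and the fall of the maintenance genes was not seen. Tet1 rose by 0.41 ± 0.03 per day (adjusted p = 1.94e-05), Dnmt3b by 0.13 ± 0.03 (adjusted p = 0.0112) and Tet2 by 0.12 ± 0.02 (adjusted p = 0.000824). Tet3 fell by 0.10 ± 0.02 per day (adjusted p = 0.00602), a call lost without day 12 (adjusted p = 0.0977). These are 4 of the 7 members, where 18.8% of genes passed (10.5% rose and 8.23% fell); the slopes of Uhrf1 (0.01), Dnmt3a (−0.01) and Dnmt1 did not. The slopes differed between the arms for Tet1, by 0.21 ± 0.04 per day (adjusted p = 0.0210), and for Tet3, by −0.12 ± 0.03 (adjusted p = 0.0456), where 3.06% of genes differed (1.76% towards a higher and 1.3% towards a lower slope with AGi). In the fit with no filter, Dnmt3l rose by 0.34 ± 0.05 per day with AGi (adjusted p = 0.00227). For Dnmt3l (0.25 ± 0.07, adjusted p = 0.118 with no filter), Uhrf1 (0.09, adjusted p = 0.124) and Dnmt1 (0.06, adjusted p = 0.191) the difference did not pass. The slope difference between the arms did not pass for Dnmt3b (0.10, adjusted p = 0.234), Tet2 (0.03, adjusted p = 0.542) or Dnmt3a (−0.02, adjusted p = 0.718) either. The Tet1 difference did not pass when day 10 or day 12 was left out (adjusted p = 0.0967 and 0.105), and the Tet3 difference without each day but day 2 (adjusted p up to 0.265). When the model gave days 8 to 12 their own level, 0 of the 7 members passed with OKSM alone (2 at an unadjusted p under 0.05, Tet1 and Tet2). In that model 1 of the 7 passed with AGi (Tet1) and 0 for the difference (none at an unadjusted p under 0.05). Over all genes that model called 0 for OKSM alone (731 at an unadjusted p under 0.05), 82 with AGi and 0 for the difference (676 at an unadjusted p under 0.05).

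Placed between MEF (0%) and the mean of the pluripotent arrays (100%), the 7 members at least 1 log2 apart there had travelled different distances. With AGi on day 12, Tet2 stood at 84.5%, Tet1 at 81.9%, Dnmt3l at 68.5%, Tet3 at 53.0%, Uhrf1 at 45.4%, Dnmt3b at 40.7% and Dnmt3a at 14.7%. With OKSM alone on day 12, Tet2 stood at 63.9%, Dnmt3a at 44.4%, Tet1 at 43.3%, Dnmt3b at 26.5%, Dnmt3l at 24.3% and Uhrf1 at 19.2%. Tet3 stood at −56.8%, since OKSM cultures lay further from the pluripotent arrays than MEF did. AGi cultures of day 12 were thus nearer to the pluripotent arrays than OKSM cultures for 6 of the 7 members and further for Dnmt3a. The share of all genes nearer with AGi was not counted. On day 12, 9.86% of all genes were past 1 log2 from the pluripotent mean with AGi and 21.6% with OKSM alone. With AGi, Tet1 and Tet2 were nearest to 100%, and Dnmt3a and Dnmt3b lay behind Dnmt3l, their cofactor. With OKSM alone, Dnmt3a (44.4%) and Tet1 (43.3%) stood close together, as did Dnmt3b (26.5%) and Dnmt3l (24.3%). Single arrays do not order values so near. The Dnmt3a scale spans 1.41 log2, and its pluripotent arrays ranged from 8.50 to 9.54.

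Distances to the goal remained in both arms. On day 12 the AGi culture differed from the pluripotent mean by −2.08 for Dnmt3b, −1.38 for Dnmt3l, −1.20 for Dnmt3a, −0.91 for Uhrf1, −0.90 for Tet1, −0.49 for Tet2, −0.48 for Dnmt1 and 0.62 for Tet3. The 3 genes past 1 log2 were thus the de novo enzymes and their cofactor, where 9.86% of all genes were past it. The OKSM culture differed by −3.33 for Dnmt3l, −2.82 for Tet1, −2.58 for Dnmt3b and 2.05 for Tet3, and 6 of 8 members were past 1 log2, where 21.6% of all genes were. The pluripotency mean reached 10.16 with AGi and 7.81 with OKSM alone on day 12, close to and far from the 10.48 to 10.54 of the pluripotent arrays. The fibroblast mean lay between 7.74 and 9.54 with AGi and between 8.86 and 10.38 with OKSM alone. Of the 16 fibroblast genes, 13 were called lower with AGi over the 6 days and none higher. Macrophage genes were lower with AGi (7 of 10 tested, with 1 higher, and 9 of 10 on days 8 to 12), with a difference of their mean of −1.33 on day 12. Epithelial genes were higher (10 of 12, and 11 of 12 on days 8 to 12), with a mean difference of 1.39 over the 6 days. Of all tested genes, 19.3% were called lower and 19.6% higher over the 6 days, and 20.6% and 20.7% on days 8 to 12. The part of cell mixture in the member values was not tested.

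**Figure D5:**
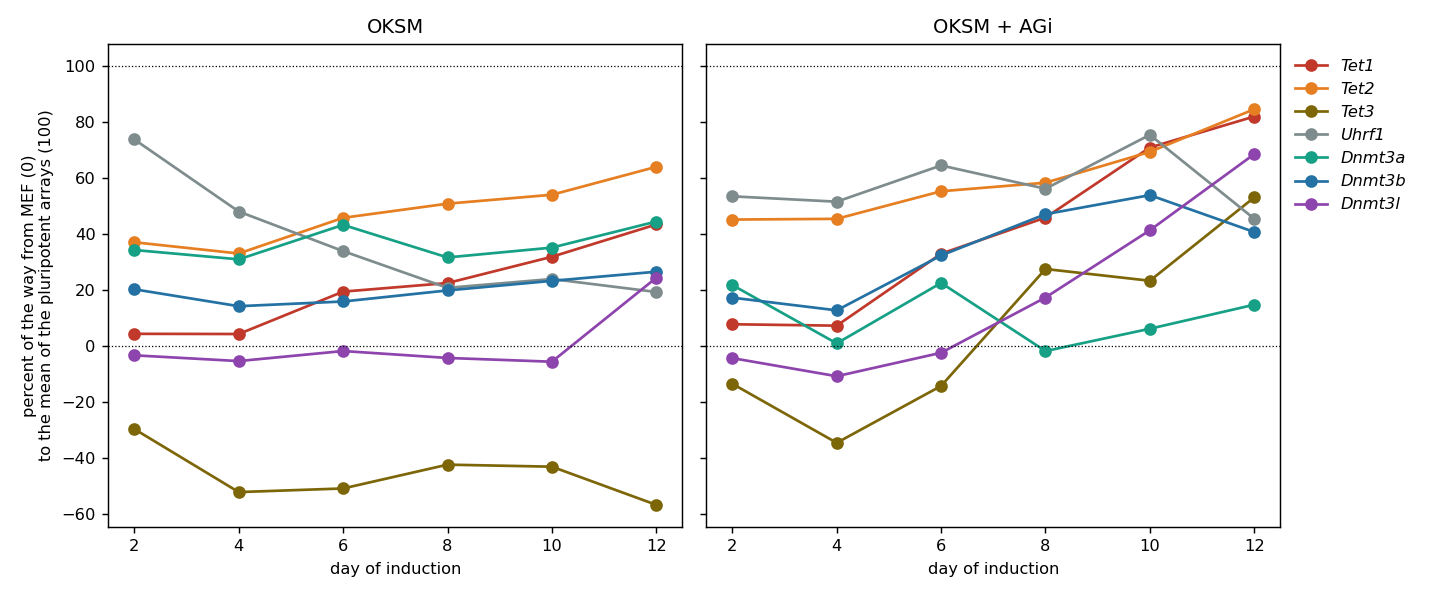
Place of each culture between MEF (0) and the mean of the pluripotent arrays (100) in percent (y axis) by day of induction (x axis) for 7 genes, with OKSM alone (left) and OKSM + AGi (right), 1 array per point. With AGi, Tet1, Tet2 and Dnmt3l rise to between 68.5 and 84.5 on day 12 and Dnmt3a is at 14.7; with OKSM alone Tet3 stays below 0.

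The first days after induction and the sorted cells showed a separate pattern. On day 2, Uhrf1 and Tet2 were already above MEF with OKSM alone, by 1.23 and 1.16, and these were the only members past 1 log2 (7.66% of all genes were). With AGi on day 2, Tet2 was higher than MEF by 1.42 and Uhrf1 by 0.89 (9.08% of all genes were past 1 log2). The Thy1-positive cells of day 3 differed from MEF by 0.96 for Uhrf1, 0.92 for Tet2, 0.55 for Dnmt1, 0.47 for Tet3, 0.46 for Dnmt3a, 0.40 for Dnmt3b, −0.07 for Tet1 and −0.18 for Dnmt3l. None of the members passed 1 log2 there, where 7.07% of all genes did. Their Tet1 level, 6.80, was the lowest of the 18 arrays. Uhrf1 stood at 73.7% of the way to the pluripotent mean on day 2 with OKSM alone and at 19.2% on day 12.

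Across the 18 arrays, members fell into groups of like pattern, described here by Pearson's r without a test, since the arrays share days, cell sources and processing. Tet1 went with Dnmt3l (r = 0.94) and Dnmt3b (r = 0.91), and Dnmt1 with Uhrf1 (r = 0.92). Tet3 opposed Tet1 (r = −0.85) and Dnmt3b (r = −0.88). Among 14358 genes, those most like Tet1 were Ildr1 (r = 0.986), Trim71 (r = 0.981) and Mycn (r = 0.980), and those most like Dnmt3l were Gtsf1l (r = 0.987), Foxd3 (r = 0.985) and Dppa4 (r = 0.985). Nearest to Dnmt3b were Gng3 (r = 0.979), Lin28a (r = 0.965) and Slc7a7 (r = 0.959). Nearest to Tet2 were Jarid2 (r = 0.973), Alkbh7 (r = 0.970) and Itpk1 (r = 0.962). Trim71, Mycn, Foxd3, Dppa4 and Lin28a are known from stem cells.

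The maintenance pair had neighbours of another kind. Dnmt1 was most like Pola2 (r = 0.961), Topbp1 (r = 0.957) and Kif15 (r = 0.955), which serve DNA replication, its checkpoint and the mitotic spindle. Uhrf1 was most like the replicative ligase gene Lig1 (r = 0.972), the mitotic regulator gene Cdc20 (r = 0.964) and Hells (r = 0.962), a chromatin remodeler needed for DNA methylation. Tet3 was most like Inafm2 (r = 0.954), Cpne2 (r = 0.954) and Pik3r1 (r = 0.947). Dnmt3a had the weakest neighbours, Derl3 (r = 0.920), Car4 (r = 0.910) and 0610009B22Rik (r = 0.908).

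The wider pathway was followed in 6 lists, whose counts stand against the 19.6% of all tested genes called higher with AGi and the 19.3% called lower. Of 12 tested genes listed for base repair and cytosine deamination, 5 were higher with AGi and none lower. The median difference was 0.25 against 0.00 over all genes, within the range of the hybridisation controls. The higher ones include the cytidine deaminase gene Apobec1 (0.78 ± 0.12, limma adjusted p = 0.00283) and the single-strand break repair genes Parp1 (0.53 ± 0.10, adjusted p = 0.00471), Lig3 (0.38, adjusted p = 0.00867) and Xrcc1 (0.34, adjusted p = 0.00393). Of 20 methyl-CpG readers and partners, 5 were higher and 2 lower, with a median of 0.04. The lower ones were Zbtb4, a methyl-CpG binding zinc finger (−0.83 ± 0.09, adjusted p = 0.00104), and Cxxc5, a CXXC zinc finger (−0.67 ± 0.09, adjusted p = 0.0016). The co-repressor gene Trim28 (0.33, adjusted p = 0.0196) and the histone methyltransferase gene Setdb1 (0.25, adjusted p = 0.0213) were higher; the value of Setdb1 lies within the range of the hybridisation controls.

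Genes of methyl donor metabolism and of ascorbate and 2-oxoglutarate transport and metabolism were called in 1 direction. Of 11 tested genes of methyl donor metabolism, 8 were higher with AGi and none lower, with a median of 0.66. They include the folate enzyme genes Mthfd2 (0.96 ± 0.18, adjusted p = 0.00586), Mthfd1 (0.83 ± 0.13, adjusted p = 0.00336) and Shmt2 (0.53, adjusted p = 0.00375), and Ahcy (0.69 ± 0.11, adjusted p = 0.00365), which encodes the enzyme that clears the by-product of methylation. Of 14 genes of ascorbate and 2-oxoglutarate transport and metabolism, 6 were higher and none lower, with a median of 0.27. The higher ones include Psat1 (0.63, adjusted p = 0.00692), Ogdh (0.54, adjusted p = 0.00231), Idh3a (0.53, adjusted p = 0.00855) and Fh1 (0.37, adjusted p = 0.00557). Whether the supply of either compound differed was not tested. Of 13 tested histone demethylases, which share 2-oxoglutarate and iron with the TET enzymes, none was higher, where 19.6% of all tested genes were. The 2 lower ones, a count near the 19.3% of all tested genes, were Kdm2a (−0.28, adjusted p = 0.0114) and Kdm3a (−0.25, adjusted p = 0.0484). The value of Kdm3a has the size of the hybridisation control differences, and the list median was −0.08. Kdm5a (−0.23, adjusted p = 0.0563) and Kdm4a (−0.21, adjusted p = 0.0991) did not pass.

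Germline genes known to be silenced by promoter methylation in somatic cells were followed in the same arrays, without a measure of their methylation. Of 16 measured, 2 passed the filter on low values, Piwil2 and Tex19.1, and the list is described over single arrays with no test. Their mean was 5.06 to 5.20 with OKSM alone and 5.14 in MEF. With AGi the mean read 5.23, 5.51 and 7.11 on days 8, 10 and 12. On day 12 the AGi culture lay above the pluripotent arrays, at 6.62 to 6.74. It was higher than the OKSM culture of the same day by at least 1 log2 for 12 of 16 genes and lower for none, where 3.83% of all 22180 genes were higher by that much. On day 10 this held for 2 of 16 (2.36% of all genes), and between the pluripotent mean and MEF for 8 of 16 (7.7% of all genes). The day 12 count rests on 1 array with AGi.

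The day 12 difference spanned genes of several germ cell functions. Dazl, an RNA-binding regulator of germ cells, read 9.99 with AGi and 4.59 with OKSM alone, against 8.35 for the pluripotent mean. Hormad1, of the meiotic chromosome axis, read 7.40 and 3.73, against 6.75. The piRNA pathway genes Piwil2 (8.91 and 5.60), Mov10l1 (8.71 and 5.69) and Asz1 (7.29 and 4.26) were likewise above the pluripotent mean, while Mael (7.49 and 4.81, against 9.61) and Ddx4 (6.92 and 4.90, against 7.71) were below it. On the same day 12 array, Tet1 was at its highest among the cultures and Tet3 at its lowest, with steps from day 10 of 0.55 and −0.39. Dnmt3l went from 7.86 to 9.06. The same step was 0.48 for Tet2, 0.12 for Dnmt3a, −0.40 for Dnmt1, −0.46 for Dnmt3b and −0.50 for Uhrf1, and the mean of the 20 S phase and mitosis genes went from 10.88 to 10.55. Whether these are linked with the germline values was not tested.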

How the data were processed

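The authors deposited log2 expression values per probe set. The submitters' processing notes name RMA and Affymetrix Expression Console as the tools. Not given in the sources used here are the RMA settings, the scan dates and the genome build, so no batch of arrays could be tested. Precision is limited by the number of arrays. Total RNA was isolated with a column kit, per the labels' protocols. The table has 41345 probe sets: 23521 with 1 gene symbol, 15820 with none, 1814 with several and 190 controls. Where several probe sets name 1 gene alone, the one of highest mean stands for it, and no level is compared between probe sets.

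Genes were tested where they reached the median of their array on at least 3 of 12 time-course arrays (13865 genes); single arrays were compared by size over 14358 genes that did so on at least 3 of 18. Tests were made with limma 3.58.1 in R 4.3.3 (lmFit, eBayes, Benjamini-Hochberg over all genes tested, threshold 0.05). AGi effects had the day as a block, with an arm by period term for days 2 to 6 against days 8 to 12, and slopes had the day as a number with an arm by day term. Nothing in the labels says that days were separate cultures, so p-values measure only the spread between these arrays, which may be technical. The fits were tested on simulated data.

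Members, lists and tests were chosen with earlier results of these data known. All members are named, with the 3 genes most like each, and up to 4 genes per pathway list with the lowest p for the AGi effect plus any called against most of the list. Germline genes named for day 12 were chosen after their values were seen. For days 2 to 6 and days 8 to 12, the test against the hybridisation controls was added after seeing the data. Python 3.11.15 with matplotlib 3.10.9 drew the figures.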

Additional observations from a re-analysis of the deposited data

Results flagged for a closer look

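Members whose AGi effect differed between periods, by a test of the difference itself, were Tet1, at 1.35 (days 8 to 12 minus days 2 to 6), and Dnmt3l, at 1.75. Dnmt3l entered that fit only through arrays where it is high, and its adjusted p with no filter was 0.0385. Members whose slope differed between the arms were Tet1, at 0.21 log2 per day, and Tet3, at −0.12. None of these period or slope calls was kept under every left-out day. With no filter, the period difference of Tet1 (limma adjusted p = 0.0508) and the slope difference of Tet3 (limma adjusted p = 0.0539) did not pass. Neither slope difference passed when the model gave days 8 to 12 their own level. No condition holds several arrays, so single samples could not be compared with others of their group.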

How the results depend on the processing

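The arms were paired by day, through the day block of the AGi fits. By replicate number no pairing exists, since each sample has the number 1. Of the results on single members, 687 kept direction and side of the threshold under the alternatives tried, 69 lost the call, 9 gained one, 14 changed sign, none of them called, and 4 values without a test moved by more than the spread of the pluripotent arrays. Counts of members here include Dnmt3l, which entered the filtered fits only through arrays where it is high. They are therefore no support for a rise of Dnmt3l, and they can exceed the counts given above without it. Counts that moved by more than 1.5 times follow; the cause was not tested unless the alternative itself shows it. The AGi effect called 5397 genes and 5 members, against 2625 and 2 at a threshold of 0.01 and 1183 and 0 against the largest hybridisation control; 2 members passed with day left out. On days 2 to 6 it called 2000 genes and 0 members, against 232 with the control and 1 member after a repeated quantile normalization. On days 8 to 12 it called 5732 genes and 8 members, against 2289 and 4 with the control. Later minus earlier called 2 members, and 1 with no filter. Slopes called 1246 genes and 4 members with OKSM alone, 2602 and 5 with AGi and 424 and 2 for the difference. With a separate level for days 8 to 12 these were 0 and 0, 82 and 1, and 0 and 0, and the difference called 1 member with no filter. OKSM slopes split 709 up and 537 down, and 612 and 742 after a repeated quantile normalization. Past 0.5 log2 in place of 1, 6859 genes in place of 3375 separated the pluripotent mean from MEF. Leaving out 1 day gave 3534 to 5613 genes and 3 to 7 members for the AGi effect, 63 to 2728 and 0 to 3 on days 2 to 6, 3709 to 5534 and 6 to 8 on days 8 to 12, and 1 to 451 and 0 to 2 for their difference. For slopes it gave 341 to 1493 and 1 to 3 with OKSM alone, 882 to 3283 and 4 to 5 with AGi, and 94 to 484 and 0 to 3 for the difference. Estimates near 0 changed sign. On days 2 to 6, Dnmt3b ranged from −0.078 to 0.262 and Uhrf1 from −0.140 to 0.284 with 1 day left out. OKSM slopes were −0.0025 for Dnmt3a after a repeated quantile normalization and −0.0076 to 0.122 for Dnmt3l with 1 day left out. AGi slopes for Dnmt1 were 0.0028 after a repeated quantile normalization, 0.00034 with centring, 0.0155 with a separate level and −0.0296 to 0.0295 with 1 day left out. For Dnmt3a they were 0.0306 with a separate level and −0.0240 to 0.0079 with 1 day left out, and for Uhrf1 −0.0113 to 0.0405.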
